A study of Homo sapiens with 2 samples.

Results

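Collagen genes were described in MDA-MB-231 cells, a human breast cancer line of the triple negative type, from peaks of RUNX2 and of MTA1. Members were the protein-coding genes of the RefSeq annotation of GRCh38 whose symbol reads COL, a number, A and a number, which gave 44 of 20037 protein-coding genes. They were divided by protein structure into 11 fibrillar, 9 network and 24 other collagens. The study asked where RUNX2, a transcription factor of bone development, meets MTA1, a subunit of the NuRD chromatin repressor complex. The labels name no treatment, and each antibody had 1 CUT&Tag library from this 1 line, so no difference here has a replicate check and no p-value is given. CUT&Tag cuts and tags DNA at the place where an antibody sits in the nucleus. The labels and the study's methods name different suppliers for both antibodies, and the labels describe a ligation of precipitated DNA that is not usual for CUT&Tag, so product and library preparation are uncertain.

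Collagens are secreted proteins whose chains wind around each other into a rope-like helix, and they make up much of the extracellular matrix. Fibrillar collagens such as types I and III build the fibers of bone, skin and stroma, and network collagens such as type IV build sheets, among them the basement membrane that a carcinoma cell must cross. The remaining collagens coat fibrils, anchor the basement membrane, form microfibrils or span the cell membrane. The lists hold no RNA, so whether these cells transcribe a collagen gene was not measured here.

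A peak was placed at an end of a gene when it overlapped the 3 kb on either side of either end, and inside when its center lay between the ends. In all, 61717 peaks were listed for RUNX2 and 42698 for MTA1. A peak's score was read as its rank, the percent of peaks of its own list with a lower score. Depth is unknown, a missing peak can be a weak signal, and all intervals cover counting error only, at 95%.

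Examples of collagen starts that carried a peak are shown first, because the starts are where collagens differed from other genes. With them is the stretch between the starts of a neighbouring pair, COL4A1 and COL4A2, which carried no peak within 1 kb. Sequences are from RefSeq (GRCh38.p14), read 5′ to 3′ on the strand of the gene and ending at the base before the listed start, and capitals mark bases under a peak. For COL4A3 (chr2:227164489-227164623, plus strand), the bases back to the edge of COL4A4 are given, with the RUNX2 peak in capitals. For COL4A1 (chr13:110307158-110307283, minus strand), the bases back to COL4A2 held no peak of either library. For COL4A5 (chrX:108439588-108439837, plus strand), capitals mark an MTA1 peak. For COL5A1 (chr9:134641553-134641802, plus strand), COL7A1 (chr3:48595330-48595579, minus strand) and COL12A1 (chr6:75206054-75206303, minus strand), capitals mark bases under peaks of both libraries.
COL4A3: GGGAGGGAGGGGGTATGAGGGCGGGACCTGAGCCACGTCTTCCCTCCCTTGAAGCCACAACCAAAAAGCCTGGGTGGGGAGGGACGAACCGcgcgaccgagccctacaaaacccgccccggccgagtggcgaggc
COL4A1: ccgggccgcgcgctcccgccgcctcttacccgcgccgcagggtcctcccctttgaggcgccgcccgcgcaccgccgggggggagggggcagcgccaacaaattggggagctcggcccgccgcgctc
COL4A5: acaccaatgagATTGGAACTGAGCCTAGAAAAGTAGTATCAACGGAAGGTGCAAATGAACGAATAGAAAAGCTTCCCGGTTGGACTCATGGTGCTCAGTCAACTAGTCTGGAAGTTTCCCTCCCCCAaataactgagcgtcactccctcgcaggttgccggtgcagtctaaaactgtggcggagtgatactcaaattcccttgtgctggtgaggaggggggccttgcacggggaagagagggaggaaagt
COL5A1: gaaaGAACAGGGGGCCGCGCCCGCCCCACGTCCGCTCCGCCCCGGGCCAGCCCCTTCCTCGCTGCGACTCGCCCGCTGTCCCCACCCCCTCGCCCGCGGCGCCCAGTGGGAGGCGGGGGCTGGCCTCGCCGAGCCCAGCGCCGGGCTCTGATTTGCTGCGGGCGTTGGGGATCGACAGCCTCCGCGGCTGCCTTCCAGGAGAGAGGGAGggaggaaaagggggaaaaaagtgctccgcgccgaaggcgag
COL7A1: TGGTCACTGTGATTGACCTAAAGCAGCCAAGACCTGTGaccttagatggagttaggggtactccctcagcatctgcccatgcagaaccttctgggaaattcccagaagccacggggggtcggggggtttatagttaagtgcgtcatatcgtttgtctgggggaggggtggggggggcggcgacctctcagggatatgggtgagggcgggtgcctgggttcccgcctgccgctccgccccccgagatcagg
COL12A1: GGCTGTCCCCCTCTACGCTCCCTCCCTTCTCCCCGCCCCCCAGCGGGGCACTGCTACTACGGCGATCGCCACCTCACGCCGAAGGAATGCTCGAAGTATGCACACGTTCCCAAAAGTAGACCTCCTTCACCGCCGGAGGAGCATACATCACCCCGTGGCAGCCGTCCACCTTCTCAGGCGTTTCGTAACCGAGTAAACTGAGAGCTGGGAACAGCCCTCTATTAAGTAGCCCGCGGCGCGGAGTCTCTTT
The COL12A1 window lay under both peaks over its whole 250 bases, and the COL7A1 window over 38 of 250. The stretch before COL4A1 had 20 CG dinucleotides in 126 bases and no peak, while that before COL4A5 had 8 in 250 bases and an MTA1 peak. Those before COL5A1 and COL12A1 had 29 and 21 in 250 bases and peaks of both libraries. Peaks thus did not follow CG count in these examples.

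Collagen genes carried a peak at an end less often than protein-coding genes at large. RUNX2 had a peak at an end of 19 of 44 collagen genes (43.2%, interval 28.3 to 59.0), against 59.9% of all protein-coding genes. MTA1 had one at 16 (36.4%, interval 22.4 to 52.2), against 59.1%. Both upper bounds lay under the share of all genes, that of RUNX2 by a small margin. The gap was wider for both proteins together: both libraries had an end peak at 10 collagen genes (22.7%, interval 11.5 to 37.8), against 51.9%. Neither had one at 19 (43.2%, interval 28.3 to 59.0), against 33%, a share within that interval. All protein-coding genes weighted to the length classes of the collagens had end peaks in 60.6% for RUNX2 and 59.7% for MTA1, so the comparison with genes of like length was much the same. In the class over 200 kb, 4 of 14 collagen genes had a RUNX2 end peak (28.6%) and 5 an MTA1 end peak (35.7%), against 52.0% and 51.5% of all genes of that length. Collagens of 20 to 50 kb had end peaks in 4 of 10 genes with either library, against 68.1% and 68.8%. Those of 50 to 100 kb had them in 2 of 6, against 66.4% and 65.4%. Not every class showed the gap for RUNX2: of collagens of 100 to 200 kb it had end peaks at 7 of 12 (58.3%, all genes 62.4%), and MTA1 at 4 (33.3%, all genes 60.2%). The 2 collagens up to 20 kb both had a RUNX2 end peak and 1 an MTA1 end peak, against 54.2% and 52.8%.

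**Figure D1:**
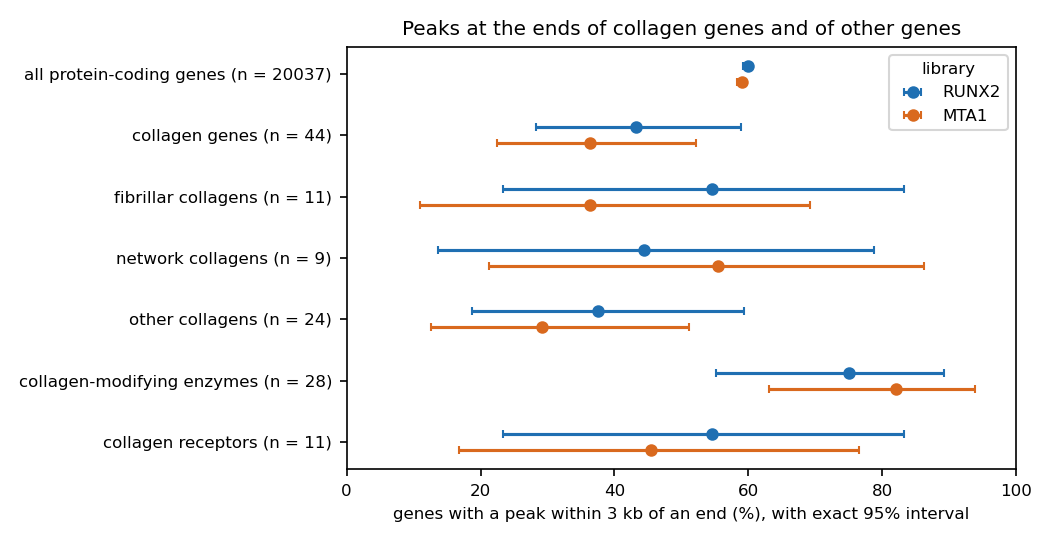
Share of genes (x axis, %) with a RUNX2 or MTA1 peak within 3 kb of an end, for all protein-coding genes, the collagen genes, their classes and 2 lists of partner genes, with bars for exact 95% intervals. The collagen genes as a whole lie at 43.2% and 36.4%, left of all protein-coding genes at 59.9% and 59.1%, and the collagen-modifying enzymes lie to the right of them at 75.0% and 82.1%.

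RUNX2 and MTA1 also parted at the collagen ends. Of the 25 collagen genes with an end peak of either library, 10 had both (40.0%, interval 21.1 to 61.3), against 77.4% of all protein-coding genes with either. RUNX2 alone was at an end of 9 genes (COL27A1, COL5A3, COL10A1, COL4A3, COL4A4, COL14A1, COL15A1, COL19A1 and COL9A2), where all genes had 8%. MTA1 alone was at an end of 6 (COL4A1, COL4A2, COL4A5, COL4A6, COL16A1 and COL17A1), where all genes had 7.13%. Partners that share their peak are counted as separate genes here (COL4A3 with COL4A4, COL4A1 with COL4A2, COL4A5 with COL4A6). In 7 of the 10 genes with both, the peaks overlapped: COL11A2, COL1A1, COL5A1, COL5A2, COL12A1, COL6A2 and COL7A1. At COL8A1, COL13A1 and COL6A1 they did not. An end peak need not belong to that collagen alone. For 5 of the RUNX2 genes and 8 of the MTA1 genes, every end peak also lay near an end of another protein-coding gene. For COL4A3 and COL4A4 (RUNX2) and for COL4A1, COL4A2, COL4A5 and COL4A6 (MTA1), that other gene was itself a type IV collagen. The same count over all protein-coding genes is not given here.

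The difference lay on the start side. A listed start was matched for 32 of the 44 genes; COL1A1, COL1A2, COL2A1, COL3A1, COL5A2, COL6A1, COL6A5, COL8A1, COL9A3, COL14A1, COL20A1 and COL22A1 had none. RUNX2 had a peak within 3 kb of the start side of 9 of these 32 (28.1%), against 58.4% of the 13081 protein-coding genes over 6 kb with a listed start, and at the far end of 8 (25%), against 19.7%. MTA1 had one at the start side of 9 as well, against 59.7%, and at the far end of 4 (12.5%), against 15.8%. The far ends thus lay near the share of all genes. With 1 kb in place of 3 kb, the start side held RUNX2 in 7 (21.9%, all genes 52.1%) and MTA1 in 6 (18.8%, all genes 54.3%), and the far end held RUNX2 in 3 (all genes 7.68%) and MTA1 in 1 (all genes 6.33%). Within 1 kb of any listed start, RUNX2 had a peak at 8 of 32 genes (25%, interval 11.5 to 43.4), against 52.1% of the 15842 protein-coding genes of any length with a listed start. MTA1 had one at 6 (18.8%, interval 7.21 to 36.4), against 53.9%. The 8 genes for RUNX2 were COL12A1, COL13A1, COL19A1, COL21A1, COL4A3, COL4A4, COL5A1 and COL7A1, and the 6 for MTA1 were COL12A1, COL13A1, COL4A5, COL4A6, COL5A1 and COL7A1. Over the 300-base window itself, from 250 bases before to 50 after a start, RUNX2 had a peak at 5 of 32 (15.6%, all genes 44.9%) and MTA1 at 6 (all genes 48.4%).

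Starts rich in CG dinucleotides usually carry open chromatin, so the genes were divided by the start window richest in CG, at the median over genes of 24 CG dinucleotides per 300 bases, a division chosen after seeing the data. Only that start of each gene was counted, which leaves out the RUNX2 peak near an inner start of COL21A1. Among the 16 collagens at or above it, RUNX2 had a peak within 1 kb at 4 (25%, interval 7.27 to 52.4), against 67.2% of all such genes. MTA1 had one at 2 of these 16 (12.5%, interval 1.55 to 38.3), against 69.6%. The 16 collagens below it had 3 with RUNX2 (18.8%) and 4 with MTA1 (25%), against 32.3% and 33.9%. In these 32 genes the gap was therefore wide at CG-rich starts, and at CG-poor starts the intervals held the share of all genes.

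**Figure D2:**
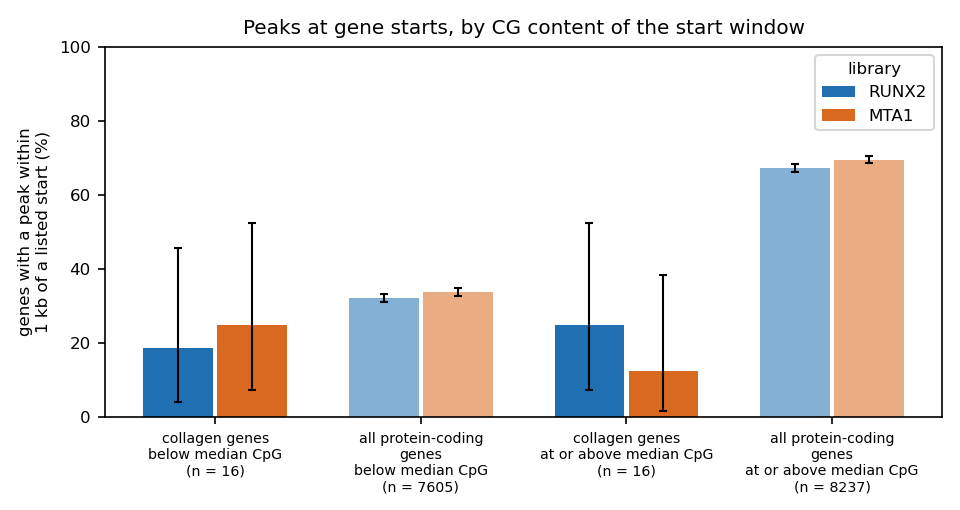
Share of genes (y axis, %) with a peak within 1 kb of a listed start, for starts below and at or above the median number of CG dinucleotides, with bars for exact 95% intervals. Collagen genes at or above the median lie at 25% for RUNX2 and 12.5% for MTA1, against 67.2% and 69.6% of all protein-coding genes of that kind.

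Inside the genes the picture was different. RUNX2 had a peak inside 40 of 44 collagen genes (all genes 54.9%) and MTA1 inside 29 (all genes 47.9%), but collagen genes are long, with a median of 145 kb against 24.1 kb. Beyond 3 kb from both ends, RUNX2 peaks lay inside 38 collagen genes (all genes 39.6%) and MTA1 peaks inside 27 (all genes 32.2%). Per length, the 177 RUNX2 peaks inside made 2.54 peaks per 100 kb (interval 2.18 to 2.95), against 2.55 over all protein-coding genes. The 84 MTA1 peaks inside made 1.21 per 100 kb (interval 0.963 to 1.49), against 1.76. Pooled over all lengths, RUNX2 density inside collagens was thus close to that of all genes, and MTA1 density was lower. Density is lower in longer genes, and within length classes RUNX2 density was higher in collagens in 4 of 5 classes, for example 1.89 against 1.64 over 200 kb, 3.32 against 2.70 from 100 to 200 kb and 4.93 against 3.82 from 20 to 50 kb. It was lower from 50 to 100 kb (3.0 against 3.12). These pooled class values carry no interval, and single genes weigh in them. The class to 20 kb held 2 collagens. COL15A1 (100 to 200 kb) and COL4A2 (over 200 kb) held 15 and 17 RUNX2 peaks inside. Median RUNX2 densities in these classes were 2.19 in collagens against 1.99, and 1.77 against 1.35. Pooled MTA1 density was lower in 4 of 5 classes. The gap was small from 20 to 50 kb (2.77 against 2.86) and over 200 kb (0.878 against 1.01). It was larger from 50 to 100 kb (1.38 against 2.17). Counting only peaks beyond 3 kb from both ends, the pooled values were 2.51 against 2.19 for RUNX2 and 1.14 against 1.41 for MTA1. Among genes over 20 kb, the median collagen had 2.38 RUNX2 and 0.812 MTA1 peaks per 100 kb, where the median gene had 2.38 and 1.42. RUNX2 peaks inside outnumbered MTA1 peaks 2.11 to 1 in collagens, against 1.45 to 1 over all genes. The ratio was 2 in fibrillar, 1.85 in network and 2.27 in other collagens.

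Counting ends and insides together, RUNX2 had a peak at 42 collagen genes (all genes 72.7%) and MTA1 at 33 (all genes 69.4%). COL3A1 was the 1 collagen gene with no peak of either library (2.27%, all genes 22.1%). RUNX2 without MTA1 was found at 10 genes (22.7%), against 8.52% of all genes: COL1A2, COL2A1, COL5A3, COL10A1, COL4A3, COL22A1, COL6A3, COL6A5, COL6A6 and COL9A2. COL4A5 was the 1 gene with MTA1 and without RUNX2 (all genes 5.24%). More RUNX2 than MTA1 peaks were listed at 31 genes (70.5%, all genes 36.2%), equal numbers above 0 at 9 (20.5%, all genes 25.1%), and fewer at 3 (6.82%, all genes 16.6%), which were COL1A1, COL16A1 and COL4A5. A count per gene depends on gene length, and the shares in this paragraph were not matched for length. Collagen genes had a median of 145 kb, against 24.1 kb for all genes, and the RUNX2 list is the longer of the 2. The peaks were unevenly spread: COL4A2, COL15A1, COL5A1, COL13A1 and COL5A2 held 70 of 194 RUNX2 peaks (36.1%), and COL4A2, COL13A1, COL5A2, COL8A1 and COL5A1 held 40 of 95 MTA1 peaks (42.1%).

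**Figure D3:**
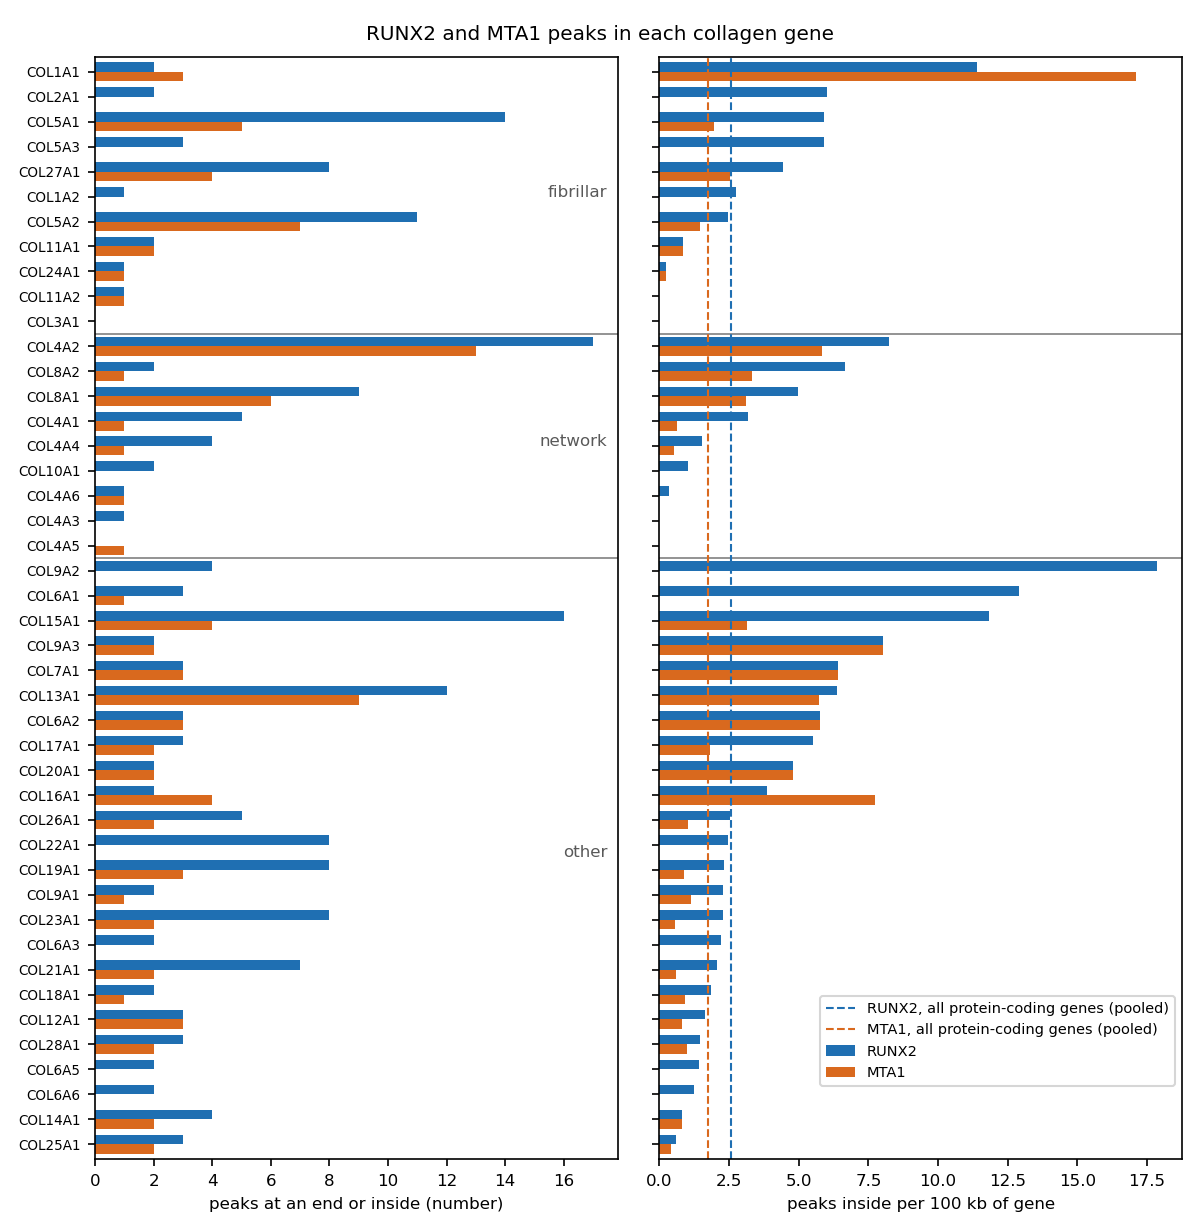
RUNX2 and MTA1 peaks in each of the 44 collagen genes, as the number at an end or inside (left) and as peaks inside per 100 kb of gene (right), with dashed lines for the pooled density of all protein-coding genes. COL4A2 has the most peaks of both libraries, 17 and 13, COL15A1 has 16 and 4, and COL3A1 has none.

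Among the 42 collagens over 20 kb, RUNX2 density was highest in COL6A1 (12.9 peaks per 100 kb), COL15A1 (11.8) and COL4A2 (8.26). It was 0 in 4 of them: COL3A1, COL11A2, COL4A3 and COL4A5. MTA1 density was highest in COL9A3 (8.02), COL16A1 (7.73) and COL7A1 (6.4), and it was 0 in 14. Short genes reach a high density with few peaks: the value of COL6A1 rests on 3 RUNX2 peaks and that of COL9A3 on 2 MTA1 peaks. COL15A1 and COL4A2 differ from these in holding 15 and 17 RUNX2 peaks inside.

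Of the fibrillar collagens, 6 of 11 had a RUNX2 end peak (54.5%, interval 23.4 to 83.3, all genes 59.9%) and 4 an MTA1 end peak (36.4%, interval 10.9 to 69.2, all genes 59.1%), and both intervals held the share of all genes. All 4 with MTA1 also had RUNX2. All 5 of their MTA1 end peaks overlapped a RUNX2 peak. The genes of type I collagen, the main protein of bone matrix, differed from each other. COL1A1, the gene of the alpha 1 chain, had 2 RUNX2 peaks near one end, at chr17:50200113-50200451 with score 40.7 (rank 97.2) and at chr17:50200572-50201065 with score 17.0 (rank 83.7). Each overlapped an MTA1 peak, both with score 7.96 (rank 53.1). One further MTA1 peak lay inside the gene at rank 10.5. RUNX2 thus ranked near the top of its list there and MTA1 near the middle. COL1A2, the gene of the alpha 2 chain, had 1 RUNX2 peak, inside, at rank 29.3, and no MTA1 peak. COL3A1, the gene of type III collagen of skin and vessels, had none over its 38.4 kb.

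Type V collagen sets fibril diameter, and its chains showed another contrast. COL5A1 had 14 RUNX2 and 5 MTA1 peaks, and at its start, in the sequence shown, the peaks of both libraries overlapped at ranks 46.0 and 34.9. COL5A2 had 11 RUNX2 and 7 MTA1 peaks, and its end peaks, at ranks 83.6 and 68.8, lay near an end of WDR75 as well. COL5A3 had 3 RUNX2 peaks, the highest at rank 44, and no MTA1 peak. COL11A2, a chain of the cartilage fibril collagen XI, had 1 peak of each library, overlapping at its far end with ranks 90.9 and 93.2, whereas COL11A1 had 2 of each inside and none at an end. COL2A1, the main cartilage collagen, had 2 RUNX2 peaks inside, the higher at rank 39.3. COL24A1 had a single site in 428 kb, 307 kb from its start, with a RUNX2 peak at rank 96.6 over an MTA1 peak at rank 67. COL27A1 had 8 RUNX2 peaks, 1 of them at its far end at rank 22.9, and 4 MTA1 peaks inside.

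Among the 9 network collagens, 4 had a RUNX2 end peak (44.4%, interval 13.7 to 78.8) and 5 an MTA1 end peak (55.6%, interval 21.2 to 86.3), and both intervals held the share of all genes. Only COL8A1 had both, and no end peak of this class overlapped a peak of the other library. The 6 type IV genes lie in head-to-head pairs, each pair sharing the region between its starts. COL4A1 and COL4A2 make the chains of nearly all basement membranes, COL4A3 with COL4A4 and COL4A5 those of the kidney filter, and COL4A6 is more restricted. Each pair had 1 peak within 3 kb of its shared starts, from 1 library. Between COL4A3 and COL4A4 this was a RUNX2 peak at chr2:227164409-227164579 with score 8.22 (rank 60.6), with no MTA1 peak. Between COL4A5 and COL4A6 it was an MTA1 peak at chrX:108439599-108439714 with score 5.85 (rank 30.5), the most frequent score of the MTA1 list. At COL4A1 and COL4A2 it was an MTA1 peak at chr13:110304417-110304532 with score 6.99 (rank 44.1), 2.68 kb inside COL4A1. Because partners share their peak, these 6 genes stand for 3 sites.

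Inside, the pairs differed greatly. COL4A2 held 17 RUNX2 and 12 MTA1 peaks in 206 kb, while its neighbor COL4A1 held 5 RUNX2 peaks, the highest at rank 50.1, and 1 MTA1 peak in 158 kb. The highest-ranking RUNX2 peak of any collagen gene lay in COL4A2 at chr13:110396853-110397207, 89.7 kb from the start, with score 63.3 (rank 99.5). It overlapped an MTA1 peak at chr13:110396933-110397216 with score 36.6 (rank 97.4). In COL4A2, 10 of the 17 RUNX2 peaks overlapped an MTA1 peak, and in COL4A1 none of 5 did. COL4A3 had no peak inside in 150 kb, COL4A4 had 3 RUNX2 and 1 MTA1, COL4A5 had none in 258 kb, and COL4A6 had 1 RUNX2 peak at rank 79.3 in 284 kb.

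**Figure D4:**
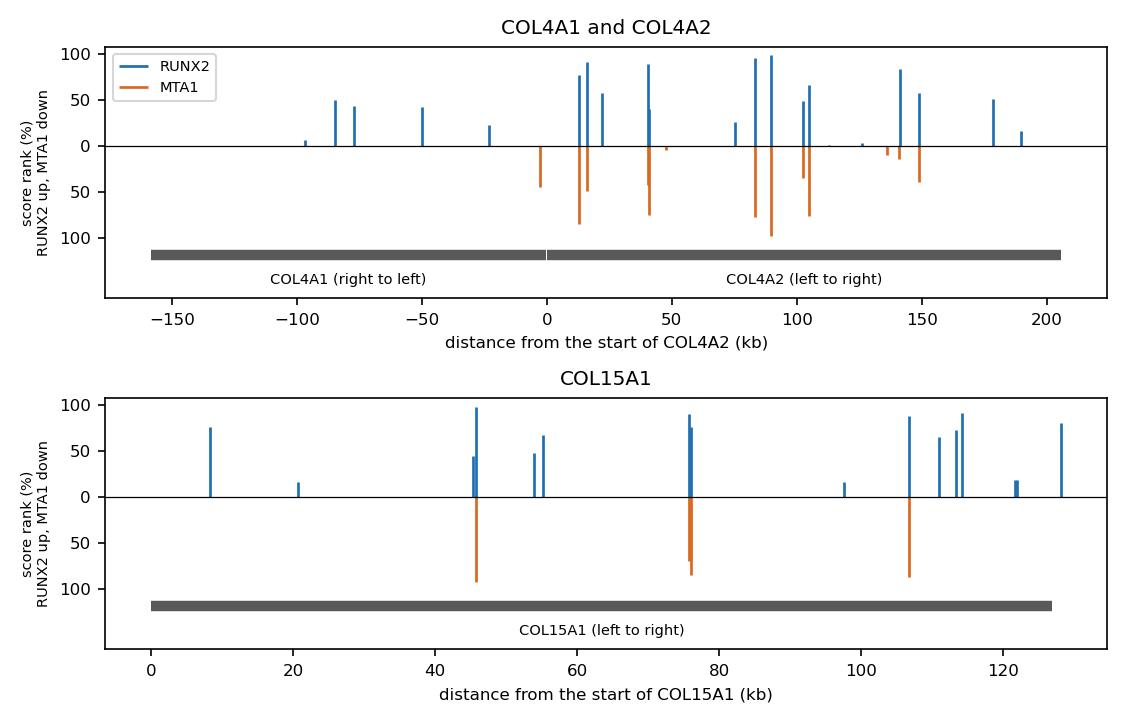
Peaks along COL4A1 and COL4A2 and along COL15A1, by distance from a gene's start (x axis, kb), with the score rank of RUNX2 peaks drawn upward and of MTA1 peaks downward (y axis, % of the list with a lower score) and gray bars for the genes. High-ranking peaks of both libraries coincide inside COL4A2, the largest at 89.7 kb with ranks 99.5 and 97.4. Within 3 kb of the shared starts of COL4A1 and COL4A2 lies 1 MTA1 peak at rank 44.1, 2.68 kb inside COL4A1.

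The other network genes are short-chain collagens. COL8A1, of vessel and corneal matrix, had 9 RUNX2 and 6 MTA1 peaks, of which 4 overlapped, and its end peaks ranked 47.3 and 27.5. COL8A2 had 2 RUNX2 peaks, the higher at rank 90.4, and 1 MTA1 peak at rank 21.6, none at an end. COL10A1, the collagen of hypertrophic cartilage and a known RUNX2 target in chondrocytes, had 2 RUNX2 peaks and no MTA1 peak. The higher one, at chr6:116118765-116118933 with score 22.5 (rank 89.4), lay just past its far end, 7.28 kb from the nearest listed start.

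Of the 24 other collagens, RUNX2 had an end peak at 9 (37.5%, interval 18.8 to 59.4, all genes 59.9%) and MTA1 at 7 (29.2%, interval 12.6 to 51.1, all genes 59.1%). These were the lowest shares of the classes, with intervals that overlap those of the others. All 24 had a RUNX2 peak inside and 18 an MTA1 peak inside. In COL15A1, a basement membrane collagen whose relative COL18A1 yields endostatin, 16 RUNX2 peaks were listed against 4 MTA1 peaks. Its highest, at chr9:98989369-98989980, had score 45.1 (rank 97.9) and overlapped an MTA1 peak at rank 91.9. All 4 MTA1 peaks of COL15A1 overlapped RUNX2 peaks, and none of either library lay within 3 kb of its start. COL18A1 had 2 RUNX2 peaks and 1 MTA1 peak, at ranks up to 81.2 and 89.5. COL13A1, a membrane collagen, had 12 RUNX2 and 9 MTA1 peaks, 6 of them overlapping. At its start the RUNX2 peak ranked 41.2 and the MTA1 peak 1.85, without overlap. COL26A1 had a site 175 kb from its start where RUNX2 ranked 96.9 and MTA1 87.5.

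Type VI collagen forms microfibrils around cells, and COL6A2 had the highest-ranking MTA1 peak of the collagens. That peak, at chr21:46133854-46134306 with score 50.5 (rank 99.3), lay past the far end of COL6A2 and near an end of FTCD, a liver enzyme gene. The RUNX2 peak it overlapped ranked 48.4. COL6A1 had 3 RUNX2 peaks, the highest at its end at rank 75.1, and 1 MTA1 peak at rank 1.34. COL6A3, COL6A5 and COL6A6 each had 2 RUNX2 peaks at ranks no higher than 29.3 and no MTA1 peak.

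Type VII collagen makes the anchoring fibrils of skin. COL7A1 had 3 peaks of each library, every one at an end and overlapping, and its start-side peaks ranked 88.4 for RUNX2 and 93.9 for MTA1. The start-side peaks also lay near an end of UQCRC1, and the far-end peaks near UCN2. COL12A1, a fibril-associated collagen, had overlapping peaks over its start with score 26.7 (rank 92.3) for RUNX2 and score 17.3 (rank 84.0) for MTA1. Among collagens with a peak over a listed start, COL12A1 and COL7A1 were those where both libraries ranked above 80.

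In 4 of the 6 remaining members with an end peak of 1 library, that peak ranked below the middle of its list. RUNX2 end peaks ranked 29.3 at COL14A1, 25 at COL19A1, 66.6 at COL9A2 and 80.8 at COL15A1. MTA1 end peaks ranked 41.9 at COL16A1 and 30.5 at COL17A1, the latter also near SLK. Yet COL16A1 held a RUNX2 peak 14 kb from its start at rank 96.2, over an MTA1 peak at rank 48.5. In COL19A1 the order was opposite, with MTA1 at rank 92.9 over RUNX2 at rank 29.3. COL22A1, a collagen of tissue junctions, had 8 RUNX2 peaks, the highest at rank 59.7, and no MTA1 peak.

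Peaks of collagen genes overlapped between libraries less often on the RUNX2 side. Of 194 RUNX2 peaks, 59 overlapped an MTA1 peak (30.4%, interval 24.0 to 37.4), against 49.9% of peaks at all protein-coding genes. Of 95 MTA1 peaks, 59 overlapped a RUNX2 peak (62.1%, interval 51.6 to 71.9), against 67.3%, a share within that interval. The gap for RUNX2 was present inside the genes (29.9% against 44%) and at the ends (38.5% against 67.3%). For MTA1 the ends differed (52.6% against 72.8%) and the insides were close (63.1% against 63.6%). Overlap followed rank. Of the 19 RUNX2 peaks at rank 90 or above, 15 overlapped (78.9%, interval 54.4 to 93.9), against 92.1% at all genes. Of the 101 RUNX2 peaks below the middle of the list, 11 did (10.9%, interval 5.56 to 18.7), against 23.5%. All 6 MTA1 peaks at rank 90 or above overlapped a RUNX2 peak, against 99.1% at all genes.

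The median rank was 48.4 for RUNX2 peaks at collagens (interval 40.6 to 53.9), against 51.3 at all genes. For MTA1 peaks it was 44.5 (interval 34.9 to 56.0), against 52.8. Both intervals held the median of all genes. By gene, the strongest RUNX2 peak had a median rank of 78.3, against 76.3, and the strongest MTA1 peak 67, against 77.4. The strongest MTA1 peak lay below the middle of its list in 14 of 33 collagens (42.4%, interval 25.5 to 60.8), against 22.2% of all genes with one. By class, median ranks of RUNX2 peaks were 49.2 in fibrillar, 52.5 in network and 41.5 in other collagens, and those of MTA1 peaks 53.1, 39.1 and 43.2. Collagen peaks were also narrow: 37.1% of RUNX2 and 34.7% of MTA1 peaks had the narrowest width of their list, 99 and 116 bp, against 28.9% and 23.7% at all genes. With these narrowest peaks left out, 41.8% of RUNX2 peaks at collagens overlapped MTA1, against 59.2% at all genes, while MTA1 overlap turned to the higher side, at 82.3% against 74.4%. Both median ranks then lay above those of all genes, at 67 against 66.6 for RUNX2 and 67.8 against 64.4 for MTA1.

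**Figure D5:**
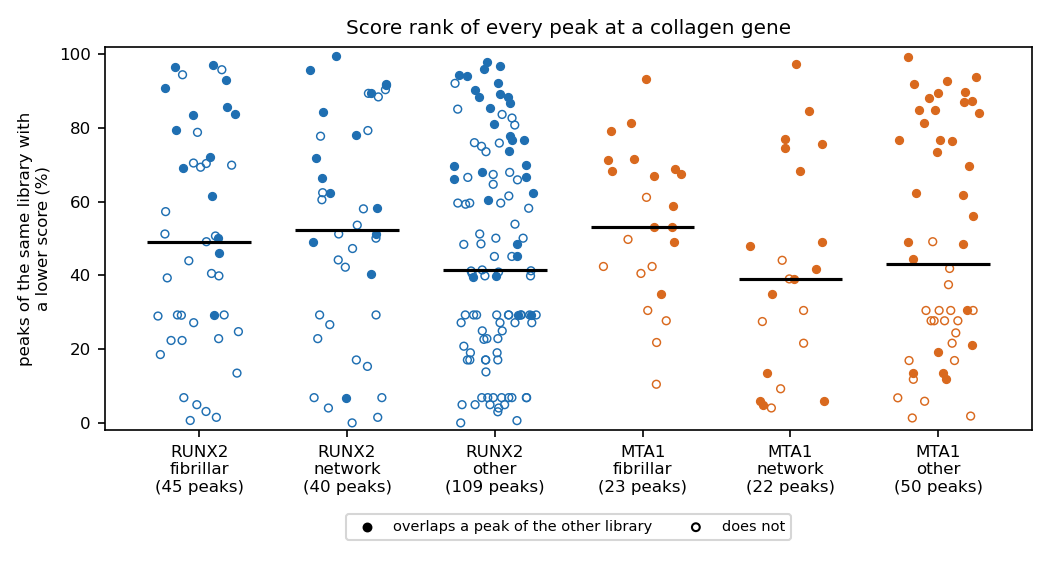
Score rank of every peak at a collagen gene (y axis, % of the same library's peaks with a lower score) by library and class, filled where it overlaps a peak of the other library, with black lines for medians. Filled points gather at high ranks, 15 of the 19 RUNX2 peaks at rank 90 or above and all 6 such MTA1 peaks.

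The start windows were searched for TGTGGT, the core that RUNX proteins bind, and its reverse complement ACCACA, on both strands and over the 300 bases of each window, 250 before to 50 after the start. Some of the 44 windows of the 32 collagens overlap each other. The motif was in 1 of the 44 (2.27%, interval 0.0575 to 12.0), against 11.3% of all windows of this length, a share within that interval. The window was at COL11A2, at an inner start with no peak of either library within 1 kb (chr6:33177593-33177842, minus strand, the 250 bases before the start, capitals for ACCACA).
COL11A2: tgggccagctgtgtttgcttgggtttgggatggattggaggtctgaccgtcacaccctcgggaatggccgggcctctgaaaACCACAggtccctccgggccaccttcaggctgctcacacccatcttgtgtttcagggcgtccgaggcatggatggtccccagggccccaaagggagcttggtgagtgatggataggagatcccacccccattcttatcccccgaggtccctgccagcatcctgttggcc
The longer TGTGGTT, which contains the shorter motif, was in that same window, against 3.69% of all windows. None of the collagen starts with a RUNX2 peak over the window had these letters in it, which says nothing of the bases outside.

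Genes that process collagen carried end peaks more often than the collagens themselves, and genes that sense it lay between, with wide intervals. The enzyme genes are shorter, with a median of 39.3 kb. Of 28 collagen-modifying enzymes, 21 had a RUNX2 end peak (75.0%, interval 55.1 to 89.3) and 23 an MTA1 end peak (82.1%, interval 63.1 to 93.9), and 19 had both. Beside all genes at 59.9% and 59.1%, the RUNX2 interval of the enzymes held the share of all genes and the MTA1 interval lay above it. Their density was 4.40 RUNX2 and 2.84 MTA1 peaks per 100 kb, above the collagens and above all genes (2.55 and 1.76), not matched for length. Examples with high-ranking peaks of both libraries were P4HB, a subunit of prolyl 4-hydroxylase (97.0 and 96.4), LOXL2, a cross-linking oxidase (98.1 and 97.5), and PPIB, a helix-folding isomerase (99.6 and 95.6). Others ranked low, such as ADAMTS14 (strongest peaks at 3.10 and 27.7) and P3H3 (15.3 and 19.0). TLL1, a procollagen protease, had no peak of either. The strongest peak per enzyme gene had a median rank of 81.6 for RUNX2 and 81.4 for MTA1, against 76.3 and 77.4 over all genes. Of 11 collagen receptors, 6 had a RUNX2 end peak (54.5%, interval 23.4 to 83.3) and 5 an MTA1 end peak (45.5%, interval 16.7 to 76.6), and both intervals held the share of all genes. Density inside the receptors did not lie between: it was 4.96 RUNX2 and 3.43 MTA1 peaks per 100 kb, above the enzymes and the collagens. ITGB1, the common beta chain of the collagen-binding integrins, had RUNX2 at rank 95.5 and MTA1 at 96.9. DDR1, a receptor kinase for collagen, had no RUNX2 peak and 1 MTA1 peak at rank 2.54.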

How the data were processed

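The study made 1 CUT&Tag library per antibody (RUNX2, MTA1) from MDA-MB-231 cells. The authors deposited 1 peak list per library with a score of unstated scale, used here only as a rank and a filter within its own list. Per the labels, the tools were CASAVA 1.4, Bowtie 0.12.8, MACS and MACS2 and the build was hg19. Their roles, the calling threshold and any control library were not given in the sources used here. The listed positions fit GRCh38 instead: a start listed there was no more than 1 kb away for 17.4% (RUNX2) and 24.3% (MTA1) of the peaks, and for 2.92% and 3.03% once the peaks were moved by 100 kb. The RefSeq table and start windows of GRCh38.p14 were therefore used, with peaks on chromosomes 1 to 22, X and Y (61700 and 42683) and positions counted from 1.

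Overlap needed at least 1 bp. Shares carry exact Clopper-Pearson intervals and pooled densities exact Poisson intervals. Median ranks carry intervals read from the ordered values by the binomial distribution. All cover counting error only. Every collagen gene could be named. Peak counts or ranks are given for type I, III and IV genes and for genes with no peak. They are also given for the 5 genes with the highest-ranking peak of each library and genes with an end peak of 1 library. Over 20 kb, the 3 highest densities are given, and the lowest were 0 in 4 genes for RUNX2 and 14 for MTA1. The members and lists were chosen with earlier results of these data known. Values came from scripts in Python (3.11.15) using pandas 2.3.3, numpy 2.4.6 and scipy 1.17.1, and plots from matplotlib 3.10.9; the scripts were tested on simulated data. Bases were read from the start windows alone, and those of peaks elsewhere were not used here.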

Additional observations from a re-analysis of the deposited data

How the results depend on the processing

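No paired analysis was possible because each antibody had 1 library. Without replicates, depth or a control library, a count says what passed an unstated threshold. Collagen genes had end peaks less often than all protein-coding genes in 5 of 5 settings for RUNX2, for MTA1 and for both, and RUNX2 peaks overlapped MTA1 peaks less often in 6 of 6. Pooled MTA1 density was below that of all genes in 7 of 7, and pooled RUNX2 density in 4 of 7. No setting matched genes by length, and collagens are longer than most genes. Within length classes, MTA1 density was lower in 4 of 5, in part by little. MTA1 overlap was below all genes in 4 of 6 settings and above them in the others, and the median rank was below in 4 of 5 for RUNX2 and in 3 of 5 for MTA1.

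When peaks scoring below the median were left out, 11 collagen genes had a RUNX2 end peak, 6 an MTA1 end peak and 5 both (all genes 44.2%, 44.1% and 36.8%); by class, RUNX2 was at 3 fibrillar and 5 other genes, and MTA1 at 0 network and 3 other genes. Pooled densities were then 1.24 and 0.503 per 100 kb (all genes 1.24 and 0.827) and medians 0.905 and 0 (all genes both 0). Median ranks were 75.1 and 76.8 (all genes 75.3 and 76.3), and MTA1 overlap was 85.0% (all genes 76.4%). With the 10000 highest-scoring peaks, these were 5, 4 and 3 genes (all genes 17.9%, 28.3% and 14.8%), with RUNX2 at 2 fibrillar, 1 network and 2 other genes and MTA1 at 1, 0 and 3. Pooled densities were then 0.374 and 0.244 (all genes 0.390 and 0.362), and both medians were 0, as over all genes. Median ranks were 91.7 and 87.0 (all genes 91.8 and 88.7), and MTA1 overlap was 47.6% (all genes 51.3%). Without peaks of the narrowest width, MTA1 was at 9 genes (all genes 53.4%), 1 of them network and 4 other. Pooled densities were then 1.60 and 0.776 (all genes 1.73 and 1.27) and medians 1.13 and 0.101 (all genes both 0). Median ranks were 67 and 67.8 (all genes 66.6 and 64.4). Overlap was 41.8% for RUNX2 (all genes 59.2%) and 82.3% for MTA1 (all genes 74.4%). With a window of 1 kb, MTA1 was at 9 genes (all genes 50.9%), 2 of them network and 4 other, RUNX2 at 3 fibrillar genes, and far-end peaks at 3 genes for RUNX2 and 1 for MTA1. With types VI and VII in the network class, that class had 7 RUNX2 and 8 MTA1 genes, and the others 4 MTA1 genes (all genes 59.9% and 59.1%). This move enlarges the network class beyond its 9 genes and shrinks the other class below 24. The counts are therefore not comparable with those of the original classes. Fewer peaks or a narrower window lower such counts by construction. Of 176 counts per gene and library, 98 were lower with the 10000 highest-scoring peaks and 71 of these became 0.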
